A study of Homo sapiens with 2 samples.

Results

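MT1G-high cells are the 10% of the 1850 LNCaP_FGC cells in which transcripts of the metallothionein gene MT1G took the largest share of the cell's UMIs, each UMI marking 1 captured transcript molecule. They were set beside the 595 LNCaP_FGC cells with 0 MT1G UMIs (32.2% of that library), and the 1070 cells between them were kept as an intermediate group. The series holds 3700 cells in all, from LNCaP_FGC, an androgen-responsive prostate carcinoma line, and from LNCaP_C4-2B, a castration-resistant descendant of LNCaP. Cells of both grew in RPMI1640 with fetal bovine serum and antibiotic and received no treatment. Each line gave 1 library with 10x Genomics 3′ chemistry, so there are no replicates. Intervals below are 95% limits for counting error only, cells of 1 library are not replicates, and no p-value was computed.

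Metallothioneins are small, cysteine-rich proteins that bind zinc and copper, and they are encoded by a cluster of near-identical genes on chromosome 16. Their transcription is induced by zinc and other metals through MTF1, a zinc-sensing transcription factor that binds metal response elements in their promoters, and by glucocorticoids. Prostate luminal cells are known for high zinc, which is commonly lost in prostate cancer.

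The cells were chosen by their MT1G values, which are given here as a description only. MT1G (GRCh38, chromosome 16, 56666730 to 56668065, minus strand) had 5560 UMIs in LNCaP_FGC, spread over 67.8% of its cells. The MT1G-high cells held 2730 of these UMIs (49.1%), with 4 to 105 per cell and a median of 9, or 341 to 5415 CPM (UMIs scaled to a common total) per cell. The selection had no natural gap, since the last cell inside it stood at 340.95 CPM and the first outside at 339.44 CPM. In LNCaP_C4-2B, MT1G had 1 UMI in 1 of 1850 cells, although MT2A and MT1X together had 25505 UMIs there. Strain and batch cannot be told apart here, since each line has 1 library. All results below leave MT1G out.

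The MT1G-high cells had a median of 17006 UMIs and 4738 genes per cell, against 17454 UMIs and 4784 genes in the cells with 0 MT1G. Mitochondrial transcripts took 5.83% of their UMIs against 6.54%, and ribosomal protein transcripts 24.7% against 22.4%. No cell barcode was shared by the libraries. Both groups carried prostate luminal transcripts at close levels. FOXA1 stood at 222 CPM in MT1G-high cells and 227 CPM in 0 MT1G cells, HOXB13 at 171 and 152 CPM, and KRT8 at 233 and 278 CPM. Markers of other cell types were low, and none reached 20 CPM in either group. Summed over each list, fibroblast markers stood at 12.2 CPM in MT1G-high cells and 25.3 CPM in 0 MT1G cells, immune markers at 0.583 and 2.36 CPM, endothelial and erythroid markers at 4.96 and 3.39 CPM, and non-prostate epithelial markers at 5.83 and 6.03 CPM. Of the 9 fibroblast markers, 6 were at 0 in MT1G-high cells and 4 in 0 MT1G cells, most UMIs being those of ACTA2, a smooth muscle actin gene, and the part of this difference in the results was not tested. The immune markers PTPRC, CD3D and CD3E, the fibroblast markers DCN and LUM, and the hemoglobin gene HBB had 0 UMIs in both groups.

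The promoters of 2 metallothionein genes that were higher in MT1G-high cells, MT2A and MT1X, are shown with that of MT1H, a cluster member with 0 UMIs in MT1G-high cells and 1 in 0 MT1G cells. Each is 300 bases from RefSeq (GRCh38.p14), plus strand, running from 250 bases before to 50 after the gene start, with matches to the core of the metal response element in capitals. The core was searched as TGCACNC or TGCGCNC on both strands, and no matches overlapped in these windows.
MT2A, chr16:56608334-56608633: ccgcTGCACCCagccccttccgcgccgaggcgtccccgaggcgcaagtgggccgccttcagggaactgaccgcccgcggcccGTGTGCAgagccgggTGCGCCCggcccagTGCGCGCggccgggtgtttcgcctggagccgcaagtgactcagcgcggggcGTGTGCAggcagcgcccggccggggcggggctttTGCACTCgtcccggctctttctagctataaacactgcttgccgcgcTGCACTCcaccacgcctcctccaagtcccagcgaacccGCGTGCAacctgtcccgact
MT1X, chr16:56682220-56682519: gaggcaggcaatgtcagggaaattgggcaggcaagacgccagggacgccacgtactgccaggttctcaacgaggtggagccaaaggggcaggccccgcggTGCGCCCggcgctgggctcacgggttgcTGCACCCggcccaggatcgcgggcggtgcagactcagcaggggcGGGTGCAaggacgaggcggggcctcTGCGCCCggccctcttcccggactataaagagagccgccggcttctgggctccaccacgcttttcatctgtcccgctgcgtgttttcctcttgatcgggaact
MT1H, chr16:56669564-56669863: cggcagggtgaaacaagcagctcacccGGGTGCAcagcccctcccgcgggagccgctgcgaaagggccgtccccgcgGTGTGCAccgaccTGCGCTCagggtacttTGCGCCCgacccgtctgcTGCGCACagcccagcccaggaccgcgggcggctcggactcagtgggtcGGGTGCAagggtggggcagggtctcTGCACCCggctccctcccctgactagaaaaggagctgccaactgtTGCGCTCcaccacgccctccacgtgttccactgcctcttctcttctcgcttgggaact
MT2A and MT1H held 8 matches each and MT1X held 4. Of 34943 promoter windows in the table, 29.5% held at least 1 match and 0.598% held at least 4. A match is a match of letters and was not tested as a site. Of the 11 metallothionein genes in the files, 5 had a window in that table, the others being MT1B and MT4 with 3 matches each. Neither MTF1 (1 window) nor NUP93 (3 windows) had a match, and SLC30A1, a zinc exporter gene regulated by MTF1, had 2.

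The first comparison asks whether the other metallothionein genes followed MT1G from cell to cell. MT2A and MT1X did. MT1F did in its summed level and in its share of cells, but most MT1G-high cells had no MT1F UMI. The 11 other metallothionein genes together stood at 2200 CPM in MT1G-high cells and 413 CPM in 0 MT1G cells, a 5.33-fold difference (5.13 to 5.53). Per cell, the sum ran from 0 to 438 UMIs with a median of 18 in MT1G-high cells, from 0 to 90 with a median of 8 in the intermediate cells, and from 0 to 92 with a median of 5 in 0 MT1G cells. The groups thus overlapped, since 0 MT1G cells reached 92 UMIs, well above the MT1G-high median of 18. At the low end, 2 MT1G-high cells had no UMI of any other metallothionein. Above the value of 900.2 CPM that marks percentile 90 of the 0 MT1G cells lay 104 MT1G-high cells (56.2%, 48.7 to 63.5), against 10.1% of 0 MT1G cells and 14.3% of the intermediate cells.

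MT2A, the most abundant metallothionein transcript here (chromosome 16, 56608584 to 56609497), had 0 to 300 UMIs per MT1G-high cell with a median of 9, and 0 to 69 with a median of 3 in 0 MT1G cells. Its level was 1426 CPM in MT1G-high cells and 235 CPM in 0 MT1G cells, 6.07-fold higher (5.78 to 6.37). LNCaP_C4-2B as a whole stood at 537 CPM. The upper tail set the groups apart most. After thinning every cell to 11901 UMIs, 39 of 163 MT1G-high cells (23.9%, 17.6 to 31.2) had at least 20 MT2A UMIs, against 3 of 500 cells with 0 MT1G (0.6%, 0.124 to 1.74), and 8 of 960 intermediate cells did.

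MT1X (chromosome 16, 56682470 to 56684196) had 0 to 132 UMIs per MT1G-high cell with a median of 7, and 0 to 47 with a median of 2 in 0 MT1G cells. Its level was 749.8 CPM in MT1G-high cells and 174 CPM in 0 MT1G cells, 4.32-fold higher (4.07 to 4.59). At least 1 MT1X UMI was seen in 93.3% of MT1G-high cells and 70.8% of 0 MT1G cells at the thinned depth. MT1F, a low transcript, stood at 24.2 CPM (83 UMIs) in MT1G-high cells and 3.49 CPM (37 UMIs) in 0 MT1G cells, 6.94-fold higher (4.66 to 10.5). At the thinned depth it was seen in 21.5% of MT1G-high cells (15.4 to 28.6) and 4.2% of 0 MT1G cells (2.62 to 6.35). The ratio of MT2A to MT1X UMIs was 1.90 in MT1G-high cells and 1.35 in 0 MT1G cells. It was not even within the MT1G-high cells, at 2.31 in the 46 cells with the highest MT1G values. In the 93 lowest MT1G-high cells, MT2A and MT1X were closer, at 467 and 416 CPM.

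The remaining members were at or near 0. MT3, a metallothionein known mainly from brain, had 1 UMI in MT1G-high cells and 10 in 0 MT1G cells, both too few to compare. MT1A, MT1B, MT1E, MT1M, MT4 and MT1HL1 had 0 UMIs in both groups, and at these depths 3 UMIs correspond to 0.875 CPM in MT1G-high cells and 0.283 CPM in 0 MT1G cells. The metallothionein genes are close paralogs, and the sources used here do not say how reads that fit more than 1 of them were treated. Whether MT1G reads were counted as other members was not tested.

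**Figure D1:**
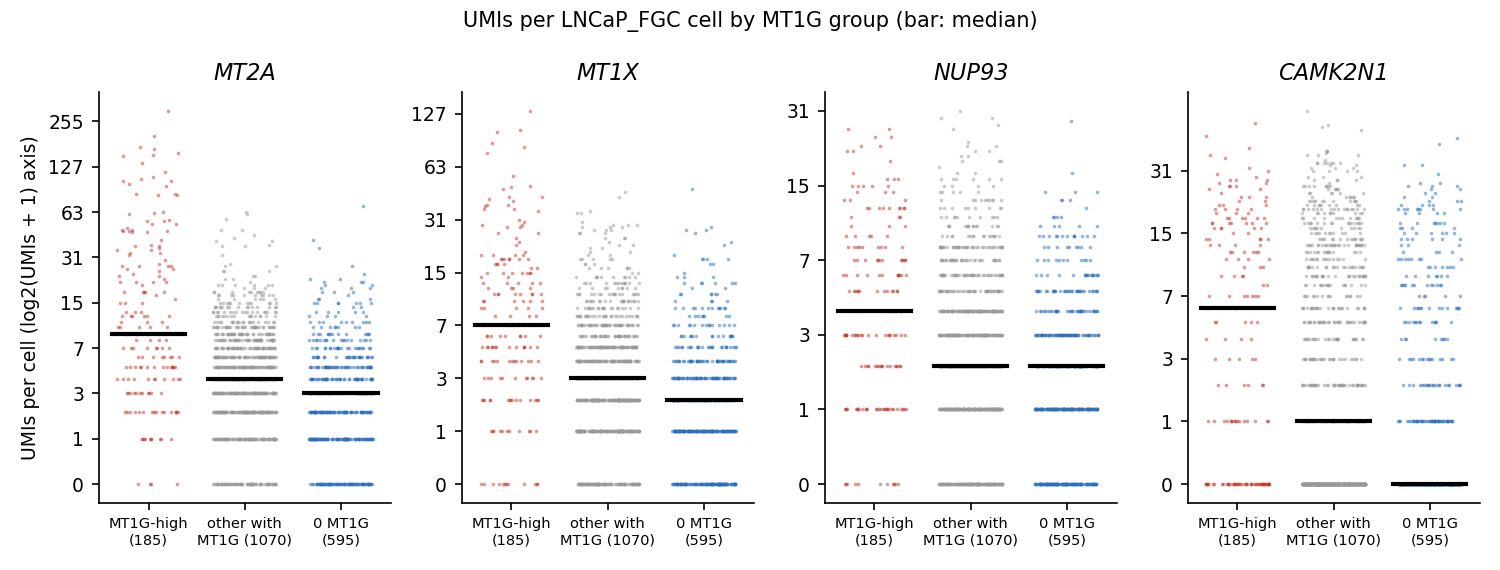
UMIs per cell of 4 genes in MT1G-high cells, the intermediate cells and 0 MT1G cells of LNCaP_FGC, 1 point per cell on a log2(UMIs + 1) axis, with a bar at the median. MT2A medians are 9, 4 and 3 UMIs and MT1X medians 7, 3 and 2 UMIs, and the highest MT2A values, up to 300 UMIs, lie in the MT1G-high cells.

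Metallothionein transcripts were concentrated in few cells. The MT1G-high cells, 10% of the library, held 35.7% of its MT2A UMIs and 27.9% of its MT1X UMIs. The 46 cells with the highest MT1G values (2.49% of the library) held 22.2% of the MT2A UMIs and 14.3% of the MT1X UMIs. When these 46 cells were left out, a choice made after the data were seen, the summed difference dropped to 3.0-fold, MT2A to 3.11-fold and MT1X to 2.86-fold. All 3 stayed above 1.5-fold.

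Levels were also followed over 6 groups of rising MT1G value. These were cells with 0 UMIs, the lower and upper 535 intermediate cells, and the 93 lowest, 46 next and 46 highest of the MT1G-high cells. MT2A stood at 235, 264, 334, 467, 1221 and 3374 CPM over these groups, and MT1X at 174, 201, 254, 416, 647 and 1459 CPM. Both increased at every step, and the largest steps lay inside the MT1G-high cells. MT1F stood at 3.49, 6.82, 8.43, 13.4, 13.6 and 54.3 CPM.

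**Figure D2:**
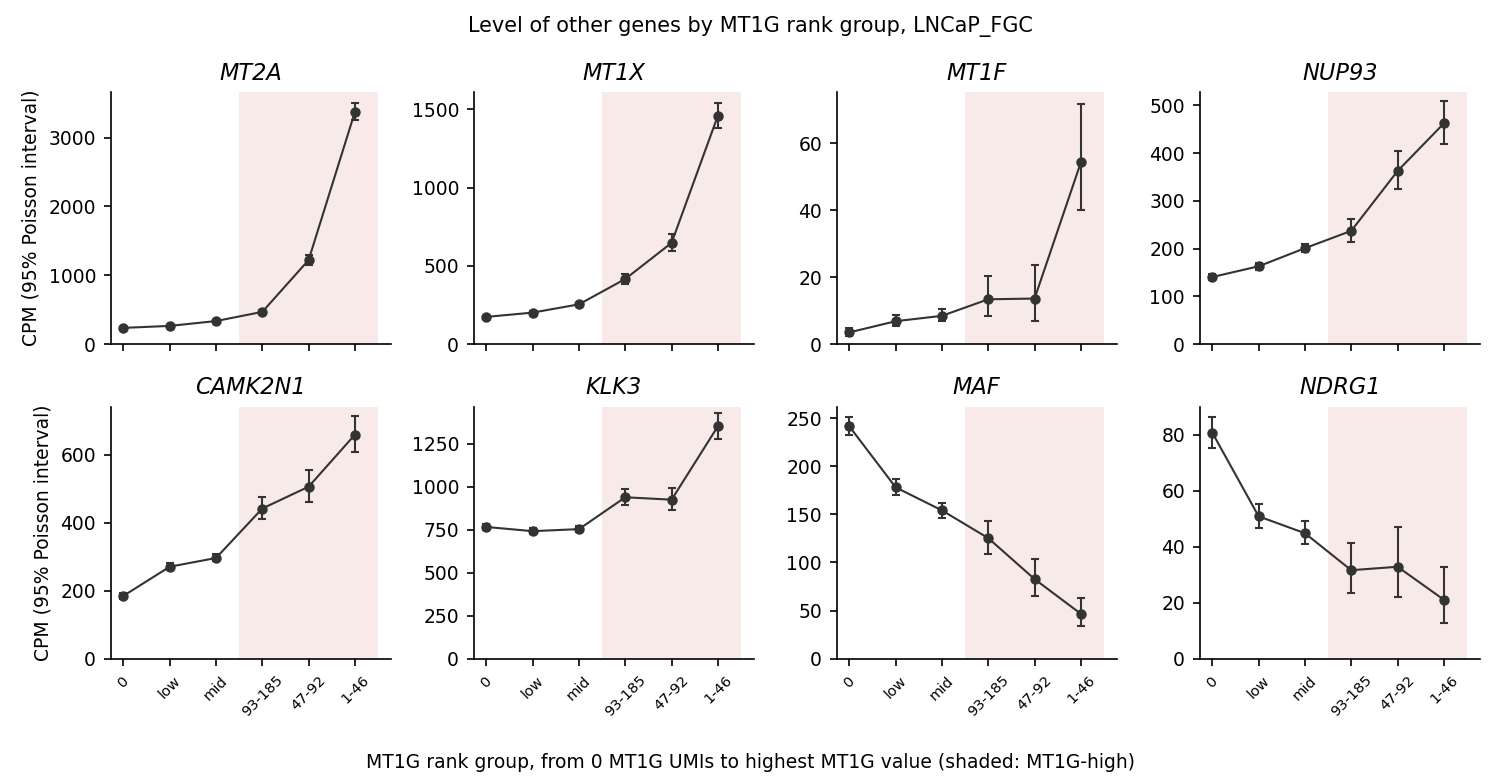
Level in CPM of 8 genes over 6 groups of LNCaP_FGC cells ordered by MT1G value, with exact 95% Poisson intervals and the MT1G-high cells shaded. MT2A, MT1X, NUP93 and CAMK2N1 increase at each step, up to 3374, 1459, 462 and 659 CPM, MAF drops at each step to 46.5 CPM, and KLK3 differs little below the MT1G-high cells.

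The second comparison asks which other genes differed. A gene was counted when its CPM differed at least 1.5-fold and reached 20 CPM in the higher group. Of 6665 genes at or above 20 CPM, 28 were higher in MT1G-high cells (0.42%) and 96 were lower (1.44%), 124 in all (1.86%). Only 10 were at least 2-fold higher and 13 at least 2-fold lower, and the median log2 ratio over all 6665 genes was -0.05. With TMM scaling, which moved that median to 0.01, 47 genes were higher and 64 lower, so that higher genes made up 42.3% of the counted genes in place of 22.6%. TMM raised every ratio by the same factor, so the 28 higher genes were among those 47 by construction.

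Behind the 3 metallothioneins, the highest ratio belonged to CAMK2N1, which encodes an inhibitor of the calcium/calmodulin-dependent kinase CaMKII. It had 0 to 53 UMIs per MT1G-high cell with a median of 6, and 0 to 45 with a median of 0 in 0 MT1G cells. Its level was 516 CPM in MT1G-high cells and 184.8 CPM in 0 MT1G cells, 2.79-fold higher (2.62 to 2.98). At the thinned depth, 47.9% of MT1G-high cells (40.0 to 55.8) and 16.6% of 0 MT1G cells (13.4 to 20.2) had at least 5 UMIs.

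H2AFJ, a histone H2A variant gene, stood at 219 CPM in MT1G-high cells and 105 CPM in 0 MT1G cells, 2.09-fold higher (1.90 to 2.29). The desmosomal cadherin gene DSC3 was 2.13-fold higher (1.66 to 2.74), at 31.8 against 14.9 CPM. The organic cation transporter gene SLC22A3 was 2.05-fold higher (1.65 to 2.55), at 40.8 against 19.9 CPM. The adhesion receptor gene ADGRG6 was 1.80-fold and the scavenger receptor gene COLEC12 1.78-fold higher. ADGRG6 did not follow MT1G evenly, at 148, 208 and 94.2 CPM in the 93 lowest, 46 next and 46 highest of the MT1G-high cells. The interval of the last group overlapped that of the 0 MT1G cells, which stood at 83.2 CPM. AL162582.1, which the annotation used here does not name further, was 2.45-fold higher (2.10 to 2.85), at 87.2 against 35.6 CPM.

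S100P, which encodes a calcium-binding protein, stood at 21.0 CPM in MT1G-high cells and 8.10 CPM in 0 MT1G cells, 2.59-fold higher (1.87 to 3.58), but its 72 UMIs lay in 14.1% of the MT1G-high cells. Without the 46 cells of highest MT1G its ratio was 1.37, below 1.5-fold.

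NUP93 was the only gene among the 12 with the highest ratios that lay beside the metallothionein cluster without belonging to the family. It encodes a scaffold protein of the nuclear pore complex (chromosome 16, 56730118 to 56850286) and begins 45.9 kb beyond the end of MT1X. It had 0 to 26 UMIs per MT1G-high cell with a median of 4, and 0 to 28 with a median of 2 in 0 MT1G cells. Its level was 329 CPM in MT1G-high cells and 140 CPM in 0 MT1G cells, 2.34-fold higher (2.16 to 2.53), and 37.4 CPM in LNCaP_C4-2B. At least 5 UMIs at the thinned depth were found in 35.0% of MT1G-high cells (27.7 to 42.8), 12.1% of intermediate cells and 8.8% of 0 MT1G cells (6.47 to 11.6).

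The other neighbours did not share this difference. Within 1 Mb of MT1G, 17 genes outside the metallothionein family had at least 10 UMIs, and 12 of them reached 20 CPM. NUP93 alone was counted as higher and none as lower, against 0.42% and 1.44% of all genes. The other 11 had log2 ratios from -0.23 to 0.23. HERPUD1, an endoplasmic reticulum stress gene and the next gene beyond NUP93 to reach 20 CPM, stood at 59.8 CPM in MT1G-high cells and 51.0 CPM in 0 MT1G cells (1.17-fold, 0.993 to 1.38). OGFOD1, on the other side of the cluster, stood at 64.1 and 75.3 CPM (0.852-fold, 0.730 to 0.990).

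**Figure D3:**
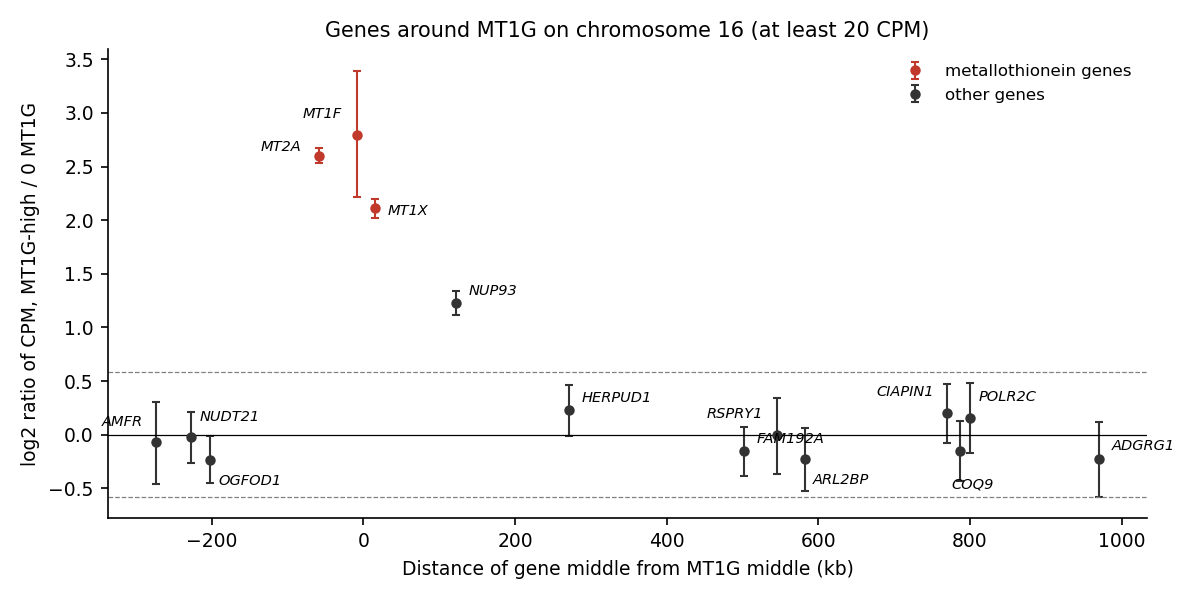
Log2 ratio of CPM, MT1G-high over 0 MT1G cells, of genes within 1 Mb of MT1G against the distance of the gene's middle from that of MT1G in kb, with 95% counting intervals and dashed lines at 1.5-fold. MT2A, MT1F, MT1X (red) and NUP93 lie above the upper line, at 2.60, 2.79, 2.11 and 1.23, and 11 other genes lie between the lines.

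NUP93 also varied with MT1X where MT1G was not seen. The 500 cells with 0 MT1G that were deep enough to be thinned were divided by their MT1X UMIs at that depth, in bins chosen after the data were seen. NUP93 stood at 100.1 CPM (85.8 to 116.2) in the 146 cells with 0 MT1X UMIs, at 139 CPM (127.3 to 152) in the 296 cells with 1 to 4, and at 275 CPM (238 to 317) in the 58 cells with 5 or more. Over the same bins HERPUD1 stood at 53.5, 48.3 and 55.1 CPM and OGFOD1 at 76.0, 78.6 and 84.0 CPM, with overlapping intervals. CAMK2N1 was lowest in the last bin, with 192 CPM (172 to 214), 196 CPM (181 to 211) and 109 CPM (85.5 to 136), and so was ETV1, with 159, 141 and 86.9 CPM. Among cells without MT1G, those with most MT1X thus had the most NUP93 and the least CAMK2N1. Within the MT1G-high cells, NUP93 stood at 176 CPM (111 to 264) in 11 cells with 0 MT1X UMIs, 263 CPM (227 to 302) in 63 cells with 1 to 4, and 419 CPM (381 to 460.1) in 89 cells with 5 or more. CAMK2N1 was not lowest in the last of these bins in MT1G-high cells, at 603, 457 and 615 CPM, nor was ETV1, at 176, 169 and 215 CPM.

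LNCaP_FGC cells differ in whether ETV1, an ETS transcription factor gene that is rearranged in LNCaP, is detected, and most MT1G-high cells had it. At least 1 ETV1 UMI was found in 157 MT1G-high cells (84.9%, 78.9 to 89.7), 68.9% of intermediate cells and 346 cells with 0 MT1G (58.2%, 54.1 to 62.2). At the thinned depth the shares were 78.5% (71.4 to 84.6) in MT1G-high cells and 54.8% (50.3 to 59.2) in 0 MT1G cells. Among the 46 cells of highest MT1G it was 91.3% (79.2 to 97.6) at full depth. The library holds 1 cell line, so it has no cell type lacking ETV1 from which free RNA could be read. In LNCaP_C4-2B, with a median of 17566.5 UMIs per cell against 18292 in LNCaP_FGC, ETV1 had 0 UMIs, where 3 UMIs correspond to 0.0853 CPM. ETV1 itself stood at 198 CPM in MT1G-high cells and 139 CPM in 0 MT1G cells (1.43-fold, 1.30 to 1.57), short of 1.5-fold.

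The comparison was therefore repeated within each ETV1 state. MT2A, MT1X and NUP93 were past 1.5-fold in both. Among cells with at least 1 ETV1 UMI, MT2A stood at 1456 CPM in MT1G-high cells and 193 CPM in 0 MT1G cells (7.55-fold, 7.09 to 8.05). Among cells with 0 ETV1 UMIs, 28 MT1G-high cells stood at 1208 CPM and 249 cells with 0 MT1G at 298 CPM (4.05-fold, 3.65 to 4.50). MT1X was 5.12-fold higher (4.74 to 5.54) with ETV1 UMIs and 4.05-fold (3.58 to 4.58) without. MT1F was 7.75-fold higher (4.79 to 13.1) with ETV1 UMIs. Without them, its 2 UMIs in MT1G-high cells and 15 UMIs in 0 MT1G cells gave 1.38-fold (0.153 to 5.95), too few UMIs to compare. NUP93 was 2.13-fold higher (1.95 to 2.33) in the first state and 2.85-fold (2.35 to 3.44) in the second.

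Several other genes fell under 1.5-fold in 1 of the states. CAMK2N1 did not. It was 1.91-fold higher (1.79 to 2.05) among ETV1-positive cells, at 553 CPM in MT1G-high cells and 289 CPM in 0 MT1G cells. Among ETV1-negative cells it was 8.33-fold higher (6.32 to 11), at 239 CPM in MT1G-high cells and 28.7 CPM in 0 MT1G cells. H2AFJ was 1.41-fold higher (1.28 to 1.55) in the first state, under the 1.5-fold limit, and 7.88-fold (5.03 to 12.3) in the second. DSC3 at 1.41-fold (1.08 to 1.84), SLC22A3 at 1.38-fold (1.10 to 1.73), ADGRG6 at 1.33-fold (1.19 to 1.495) and COLEC12 at 1.40-fold (1.05 to 1.87) were also under the limit among ETV1-positive cells. KLK3, the gene of prostate-specific antigen, stood at 1043 CPM in MT1G-high cells and 765 CPM in 0 MT1G cells overall (1.36-fold, 1.31 to 1.42), but at 0.969-fold (0.931 to 1.01) among ETV1-positive cells and 1.95-fold (1.57 to 2.39) among ETV1-negative cells. A cell counted as ETV1-negative may have an ETV1 transcript that was not captured, and its part in these ratios was not tested.

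**Figure D4:**
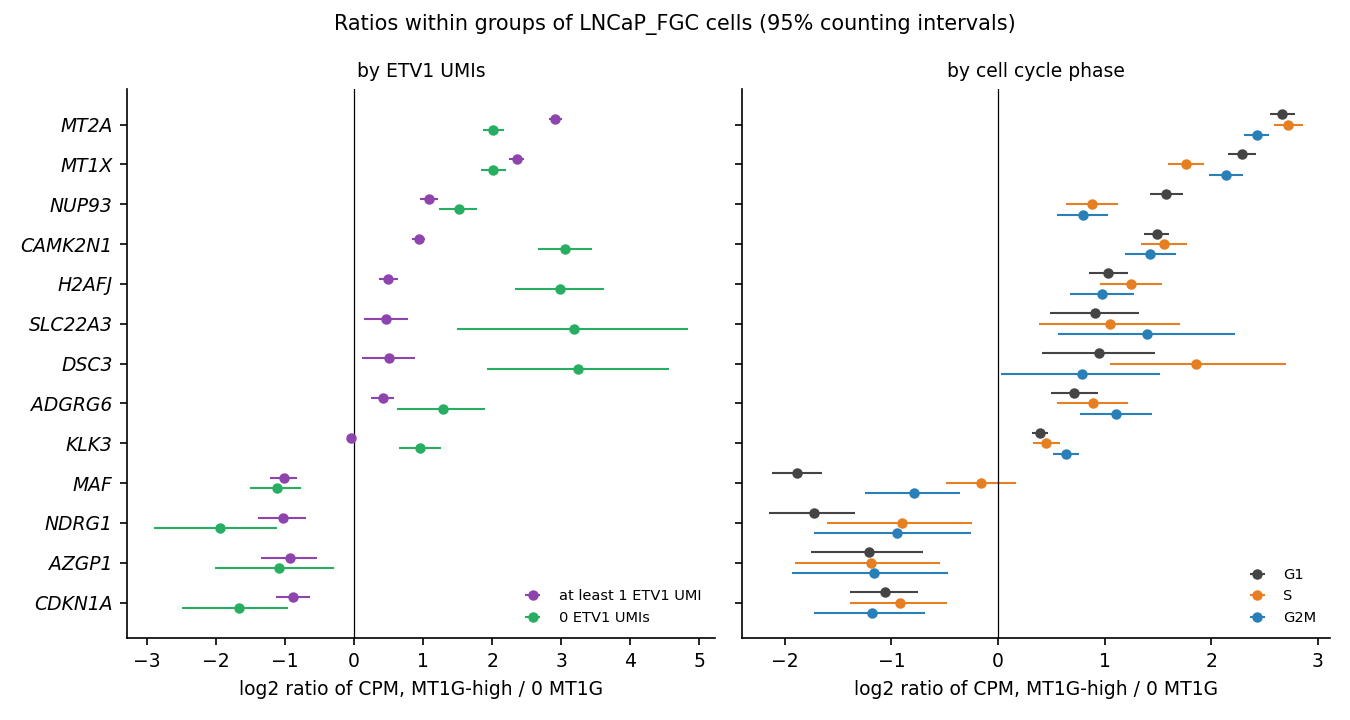
Log2 ratio of CPM, MT1G-high over 0 MT1G cells, of 13 genes within ETV1 states (left) and cell cycle phases (right), with 95% counting intervals. MT2A, MT1X and NUP93 lie above 0 in each group of cells, CAMK2N1 and H2AFJ lie far higher among cells with 0 ETV1 UMIs, at 8.33-fold and 7.88-fold, and KLK3 lies near 0 among cells with ETV1.

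On the list of 10 genes lower in ETV1-negative cells, 4 were higher in MT1G-high cells (CAMK2N1, H2AFJ, SLC22A3 and RIPOR2) and 1 was lower (SYT4). Of all genes, 0.42% were higher and 1.44% lower. The median log2 ratio of the list was 0.55. The list came from these same cells and is not independent evidence of a direction. SYT4, a synaptotagmin gene of vesicle exocytosis, stood at 72.6 CPM in MT1G-high cells and 118 CPM in 0 MT1G cells. Its ratio was 0.425 (0.369 to 0.489) among ETV1-positive cells and 1.27 (0.490 to 2.80) among ETV1-negative cells, where MT1G-high cells had 7 UMIs. RIPOR2 stood at 1.11-fold (0.947 to 1.30) among ETV1-positive cells, under the limit.

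The lowest ratio belonged to NDRG1, a gene induced by hypoxia, androgen and other stress. It had 0 to 5 UMIs per MT1G-high cell and 0 to 44 per 0 MT1G cell, with a median of 0 in both. Its level was 29.2 CPM in MT1G-high cells and 80.8 CPM in 0 MT1G cells, 2.77-fold lower (2.25 to 3.44). MAF, a basic leucine zipper transcription factor gene, had 0 to 19 UMIs with a median of 0 in MT1G-high cells and 0 to 62 with a median of 1 in 0 MT1G cells. Its level was 93.6 CPM in MT1G-high cells and 241 CPM in 0 MT1G cells, 2.58-fold lower (2.30 to 2.91). The shares of cells with at least 2 MAF UMIs at the thinned depth differed less. They were 25.2% of MT1G-high cells (18.7 to 32.5) and 36.6% of 0 MT1G cells (32.4 to 41.0). Over the 6 MT1G groups MAF stood at 241, 178, 154, 125, 82.7 and 46.5 CPM, lower at every step, and NDRG1 at 80.8, 50.9, 44.8, 31.6, 32.8 and 21.1 CPM.

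CDKN1A, which encodes the inhibitor p21, stood at 53.3 CPM in MT1G-high cells and 111 CPM in 0 MT1G cells (2.08-fold lower, 1.78 to 2.45). GADD45A was 2.31-fold lower, at 12.2 against 28.3 CPM, and the antiproliferative gene BTG2 2.23-fold lower, at 9.91 against 22.1 CPM. CDKN1A did not follow MT1G evenly, at 52.9, 26.0 and 80.9 CPM in the 93 lowest, 46 next and 46 highest of the MT1G-high cells. AZGP1, which encodes a secreted zinc-binding glycoprotein, was 2.28-fold lower (1.79 to 2.92), at 22.7 against 51.7 CPM. GNMT, a glycine methyltransferase gene, was 2.10-fold lower, and NPC1, a lysosomal cholesterol exporter gene, 2.24-fold lower. The others were LINC00161, a long noncoding RNA (2.39-fold), the polarity scaffold gene LIN7A (2.20-fold), the dynein adaptor gene BICD2 (2.13-fold) and the choline transporter-like gene SLC44A4 (2.03-fold).

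The 12 lowest genes had ratios below 1 in both ETV1 states, although LIN7A (0.903), SLC44A4 (0.702) and GNMT (0.673) were short of 1.5-fold lower among ETV1-positive cells. NDRG1 was 2.05-fold lower among ETV1-positive cells and 3.83-fold lower among ETV1-negative cells, and MAF was 2.03-fold and 2.18-fold lower. By phase, MAF was 3.69-fold lower in G1 cells but 1.11-fold lower (0.888 to 1.40) in S cells, an interval that includes no difference, and 1.73-fold lower in G2M cells.

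Phase calls were made from S and G2M gene scores. At the thinned depth, 30.1% of MT1G-high cells (23.1 to 37.7) and 21.2% of 0 MT1G cells (17.7 to 25.0) were called S. G2M calls took 22.1% (16 to 29.2) of MT1G-high cells and 30.8% (26.8 to 35.1) of 0 MT1G cells, and G1 calls 47.9% and 48.0%. At full depth the S shares were 28.1% and 20.5% and the G2M shares 27% and 31.6%. Free RNA can enter such scores, and its part was not tested. Of 18 cell cycle genes outside the phase lists, 1 was lower and none was higher, against 1.44% and 0.42% of all genes. The lower one was the spindle gene ASPM (47.2 CPM in MT1G-high cells, 76.4 CPM in 0 MT1G cells). The metallothionein sum was 5.65-fold higher within G1, 5.17-fold within S and 5.04-fold within G2M cells. NUP93 was 2.99-fold higher within G1, 1.84-fold within S and 1.74-fold within G2M.

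No gene for the regulator or the transporters of zinc was counted as different, but few of all genes were (1.86%). Of 23 genes for MTF1 and the SLC30A and SLC39A zinc transporters, 14 reached 20 CPM, and none was counted in either direction. The 14 had a median log2 ratio of 0.10, against -0.05 over all genes. MTF1 stood at 33.5 CPM in MT1G-high cells and 31.7 CPM in 0 MT1G cells (1.06-fold, 0.849 to 1.31). SLC30A1, the zinc exporter gene of the cell surface, stood at 12 and 10.5 CPM (1.14-fold, 0.778 to 1.65), an interval that includes 1.5-fold. The importer gene SLC39A14 was at 34.4 and 29.4 CPM, and SLC39A6 at 151 and 138 CPM. The glucocorticoid receptor gene NR3C1 had 1 UMI in MT1G-high cells and 3 in 0 MT1G cells, and TSC22D3, a gene known to be induced by glucocorticoids, stood at 31.8 and 29.8 CPM.

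Other stress lists held few counted genes, and so did the whole set, with 1.86% of all genes counted. None of 15 iron and copper genes was counted, and the ferritin gene FTH1 stood at 2020 CPM in MT1G-high cells and 2097 CPM in 0 MT1G cells. None of 19 targets of NRF2 and thiol redox genes was counted, with NQO1 at 78.1 and 68.6 CPM and SQSTM1 at 214 and 271 CPM. HMOX1, inducible by heavy metals, stayed under 20 CPM, at 8.45 and 5.18 CPM (1.63-fold, 1.00 to 2.60). None of 16 heat shock and early response genes and none of 14 integrated and endoplasmic reticulum stress genes was counted. Of 17 hypoxia and glycolysis genes only NDRG1 was, against 1.44% of all genes, while LDHA stood at 328 CPM in MT1G-high cells and 295 CPM in 0 MT1G cells. EGLN3, a hypoxia-inducible prolyl hydroxylase gene, was just under the 20 CPM limit, at 19.8 CPM in MT1G-high cells and 8.86 CPM in 0 MT1G cells (2.24-fold, 1.61 to 3.09).

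Of 25 androgen-induced genes, 1 was higher and 4 were lower, against 0.42% and 1.44% of all genes. The higher one was HPGD, a prostaglandin-degrading enzyme gene (33.5 CPM in MT1G-high cells, 21.0 CPM in 0 MT1G cells). The lower ones were MAF, GNMT, AZGP1 and FKBP5, a chaperone gene (127.4 CPM in MT1G-high cells, 193 CPM in 0 MT1G cells). The kallikrein gene KLK2 stood at 166 and 179 CPM (0.928-fold, 0.843 to 1.02). Of 5 androgen-repressed genes, 2 were higher, against 0.42% of all genes. These were CAMK2N1 and UGT2B17, an androgen-glucuronidating enzyme gene (25.7 CPM in MT1G-high cells, 16.5 CPM in 0 MT1G cells). None of 13 luminal markers, 3 epithelial-mesenchymal transition markers or 1 basal marker was counted, but only 1.86% of all genes were. Of the 2 neuroendocrine markers that reached 20 CPM, SYT4 was counted as lower, against 1.44% of all genes, and DLL3 was not counted.

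Immune-related lists lay lower without many genes passing the limit. Of 5 MHC class I genes, 1 was lower, against 1.44% of all genes. It was the peptide-loading gene TAPBP (29.2 CPM in MT1G-high cells, 44.4 CPM in 0 MT1G cells). The median log2 ratio of the 5 was -0.45. B2M, the light chain gene of MHC class I, stood at 196 CPM in MT1G-high cells and 267 CPM in 0 MT1G cells (0.733-fold, 0.673 to 0.797). None of 4 interferon response genes was counted (median -0.36), against 1.86% of all genes. Of 9 replication-dependent histone genes 2 were lower, HIST1H2BC and HIST1H2AC, and of 12 p53 target and arrest genes 2 were lower, CDKN1A and BTG2, against 1.44% of all genes. On the p53 list GDF15, a secreted stress cytokine gene, stood at 135 CPM in MT1G-high cells and 109.5 CPM in 0 MT1G cells (1.23-fold, 1.10 to 1.37). None of 92 ribosomal protein genes was counted (median 0.12), and none of 19 cholesterol, 19 fatty acid or 8 polyamine genes, against 1.86% of all genes.

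**Figure D5:**
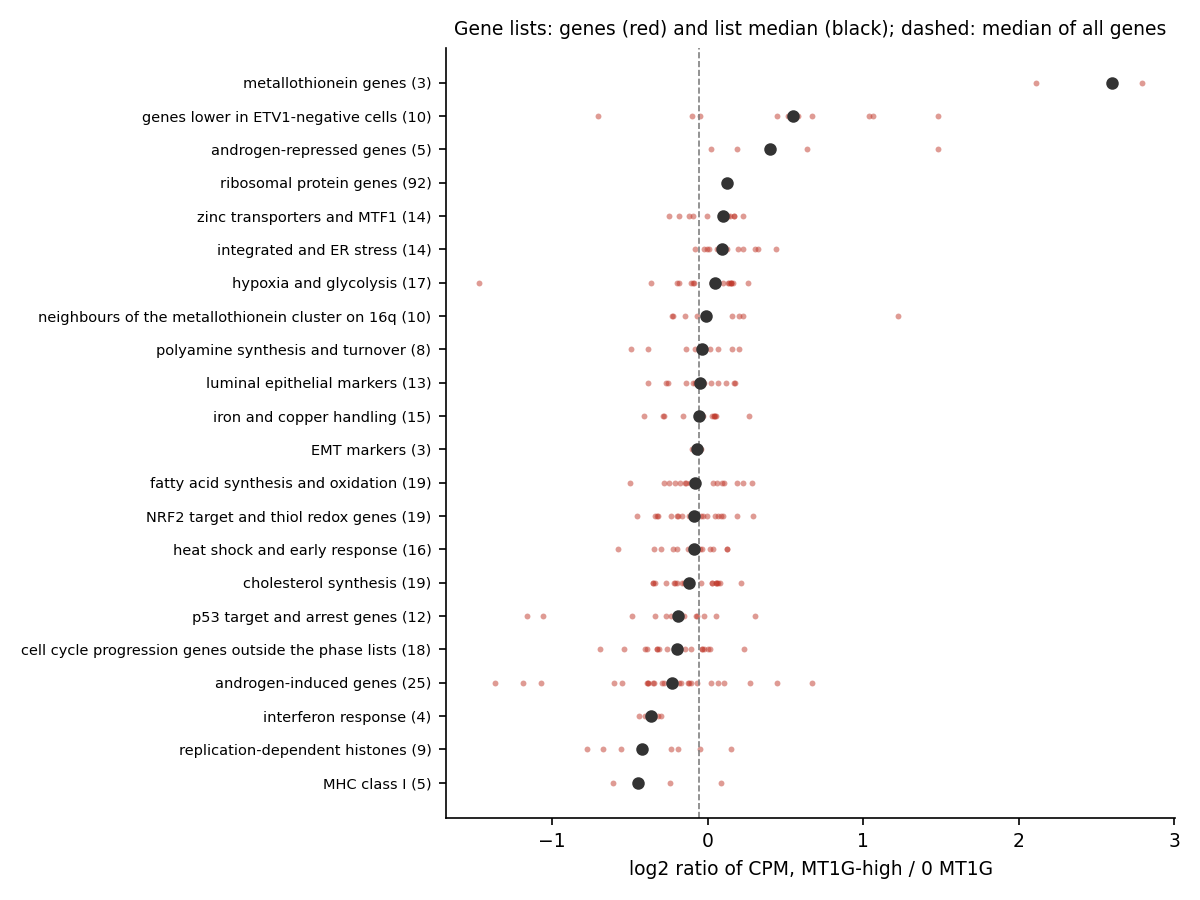
Log2 ratio of CPM, MT1G-high over 0 MT1G cells, for the genes of each list that reached 20 CPM (red, number in parentheses) with the list median (black); for the 92 ribosomal protein genes only the median is drawn. The metallothionein median is 2.60, the medians of the other lists lie between -0.45 and 0.55, and the dashed line marks the median of all genes at -0.05.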

How the data were processed

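Single cells of both lines were trypsinized and captured with 10x Genomics 3′ v3.1 chemistry. The submitters' processing notes name Cell Ranger 6.0, Seurat and the build GRCh38. The authors filtered cells by genes, reads, hemoglobin, ribosomal and mitochondrial content and doublet score, drew 1850 cells per line and thinned them to an equal mean depth. What was deposited are the resulting UMI counts, 35150013 UMIs in LNCaP_FGC and 35149989 in LNCaP_C4-2B, so the depth before thinning is unknown and equal means say nothing of RNA content. No further doublet caller was run.

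Cells were ranked by MT1G UMIs over total UMIs and the first 185 taken, with ties in barcode order. UMIs were summed over each group of cells and scaled to CPM, and ratios have exact conditional 95% intervals. Intervals are Clopper-Pearson for shares and exact Poisson for levels. For shares of cells, each cell was thinned to 11901 UMIs (percentile 10 of LNCaP_C4-2B), which left out 22 MT1G-high cells and 95 cells with 0 MT1G. Phases were called with CellCycleScoring in Seurat 5.3.0 (R 4.3.3). TMM factors came from edgeR 4.0.16 and median-of-ratios factors from DESeq2 1.42.0, as scalings only. The ratio code was tested on simulated data.

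Genes named were the 12 highest and 12 lowest ratios among genes with at least 20 CPM and the same direction in each phase (ribosomal protein and mitochondrial genes left out), all metallothioneins, up to 2 genes at each end of each list, and a set of genes of prior interest. Where another gene is named in a list, it was chosen after its values were seen. The cells, lists and comparisons were chosen with earlier results of these data known.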

Additional observations from a re-analysis of the deposited data

How the results depend on the processing

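With 1 library per line no replicate could be left out, and intervals cover counting error only. No paired analysis was possible because each line has 1 library and no test was run. The metallothionein sum stayed above 1.5-fold under each alternative run, from 3.0-fold without the 46 cells of highest MT1G to 8.18-fold with 93 MT1G-high cells. It was 4.25-fold without the 10 highest cells, 3.48-fold with 370 cells, 4.46-fold against all other LNCaP_FGC cells, 4.98-fold when cells were ranked after thinning, 5.63-fold on thinned counts, 5.56-fold with TMM or median-of-ratios scaling, 5.65-fold in G1 and 5.04-fold in G2M cells, and 6.51-fold with and 4.03-fold without ETV1 UMIs. Leaving out the 10 or 46 highest cells was chosen after seeing the data.

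The counts of 28 higher and 96 lower genes moved more. They were 72 and 221 with 93 cells, 17 and 37 with 370 cells, 12 and 42 against all other cells, 13 and 29 at 50 CPM, 790 and 1529 with no CPM minimum, and 67 and 182 on thinned counts. Within smaller groups of cells they were 128 and 279 in G1, 147 and 453 in S, 170 and 368 in G2M, and 496 and 567 in cells with 0 ETV1 UMIs. In cells with at least 1 ETV1 UMI they were 35 and 79, and only 13 and 46 of these were among the 28 and 96. Ranking cells after thinning gave 38 and 91, with 17 and 41 among the 28 and 96. Similar counts thus did not mean the same genes. Scaling gave 47 higher genes with TMM and with median-of-ratios factors, and 55 with totals taken without mitochondrial and ribosomal protein genes, which moved the share of higher genes from 22.6% to 42.3% with the first pair. TMM and median-of-ratios scaling each raised every ratio by a common factor, which by construction can only add higher genes and remove lower ones. Smaller groups have fewer UMIs by construction. Other causes of these shifts were not tested.

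Of the 16 single genes run, 3 changed sign, each with an interval that includes 1: KLK2 to 1.02-fold (0.937 to 1.12) against all other cells and 1.17-fold (0.903 to 1.49) in ETV1-negative cells, KLK3 to 0.969-fold (0.931 to 1.01) in ETV1-positive cells, and S100P to 0.296-fold (0.0073 to 1.76) in ETV1-negative cells, where it had 1 UMI in MT1G-high cells. Others fell short of 1.5-fold. CDKN1A was 1.40-fold lower when cells were ranked after thinning, and MAF 1.11-fold lower in S cells. SLC22A3 was at 1.49-fold against all other cells and 1.38-fold in ETV1-positive cells. H2AFJ and DSC3 were at 1.41-fold in ETV1-positive cells, and S100P at 1.37-fold without the 46 highest cells. MT1F was at 1.38-fold (0.153 to 5.95) in ETV1-negative cells, with too few UMIs to compare.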
